A study of Arabidopsis thaliana with 13 samples.

Results

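The data described here are the transcript levels of 4 Arabidopsis thaliana genes of the GDSL lipase-like family, AT1G71250, AT1G73610, AT2G03980 and AT5G33370, in seed-bearing siliques. The genes were listed as lipase-like genes with opposite dose responses, and they had been chosen by their measured signals in the 7 groups of the series, so that their levels and differences are given as a description with no test. Each of the 4 genes had 1 probe set that the array annotation assigns to that gene alone, out of 13286 genes with such a probe set and 22746 probe sets that are not controls. AT1G71250 and AT1G73610 lie on chromosome 1, AT2G03980 on chromosome 2 and AT5G33370 on chromosome 5, and all are annotated as protein coding in the TAIR10.1 gene table.

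RNA of whole siliques was hybridized to 13 Affymetrix ATH1 arrays, which makes 2 biological replicates of each of 6 crosses and a single array of msi1. In the name of a cross the ploidy of the mother precedes that of the father. Paternal excess is represented by 2xX4x, with a C24 mother carrying A9-barnase and a tetraploid C24 father, and by 2xX6x, with the same kind of mother and a hexaploid Col-1 father. Maternal excess is represented by 4xX2x, a tetraploid C24 mother with A9-barnase pollinated by diploid C24, and by 6xX2x, a hexaploid Col-1 mother without a transgene, emasculated and pollinated by diploid C24. In fis1X2x the mother was a Ler plant homozygous for fis1-3, an allele also known as mea-3, and the father was diploid C24. The msi1 siliques, from plants carrying msi1-2 in C24 made male sterile with A9-barnase, developed without fertilization. The methods describe these as F1 plants of an msi1 homozygote and C24, scored for presence of the mutant allele, so that by this account they were heterozygous. The balanced cross 2xX2x had a diploid C24 mother with A9-barnase and a diploid C24 father, and is the reference for every other group. A9-barnase, which kills the tapetum and so removes pollen, was thus carried by the seed parent in every group except 6xX2x and fis1X2x. Siliques were taken 5 days after pollination, or for msi1 7 days after the flower opened, and were pooled from several plants. Accession changed together with ploidy or genotype in 2xX6x, 6xX2x and fis1X2x, and these cannot be told apart in a comparison with 2xX2x.

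GDSL lipases are a large plant family of hydrolases, named for a motif around the active-site serine, that cleave or transfer the acyl groups of lipids and other esters. Some members release fatty acids from seed lipids during seed filling and germination, and others join hydroxy fatty acids into cutin, the polyester of the plant cuticle. AT5G33370 encodes CUS2, a cutin synthase needed for the ridges on the cuticle of sepals. The specific roles of the other 3 genes in seeds are not stated here. In the Arabidopsis seed the endosperm receives 2 maternal genomes for each paternal one, extra paternal genomes promote endosperm growth and extra maternal genomes restrict it. FIS1 (MEDEA) and MSI1 are subunits of the FIS Polycomb complex, which represses endosperm genes by methylation of histone H3, and in mutants of either the central cell can start endosperm divisions without fertilization.

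Values are MAS5 signals, intensities on a linear scale that had been scaled to a trimmed mean of 100.01 on every array. The array medians lay between 38 and 46.4. Log2 differences were taken on the scale of log2(signal + 7.4), which understates differences of dim probe sets, and a fold is the ratio on that scale. The first array of 6xX2x stood apart in its 3′/5′ control ratios, an indicator of RNA integrity, with 28.5 for actin against 2.81 to 17.0 on the other arrays and 6.93 for GAPDH against 1.2 to 2.84. AT2G03980 was above the 40th percentile of its array on all 13 arrays, AT1G71250 on 9, AT1G73610 on 8 and AT5G33370 on 3. That percentile lay at signals of 22.2 to 29.8. All 4 passed the filter on dim probe sets, which asked for 2 arrays above it, AT5G33370 through msi1 and 1 array each of 6xX2x and fis1X2x. Since whole siliques were sampled, fewer cells of a type and less RNA per cell cannot be told apart.

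AT1G71250 had a low signal in 2xX6x, fis1X2x and msi1 and a high one in the other groups, 2xX2x included. With the father's ploidy rising, its 2 arrays read 253.0 and 274.5 in 2xX2x, 203.9 and 309.8 in 2xX4x, and 5.3 and 30.9 in 2xX6x. The signals with a tetraploid father overlapped those of the balanced cross, and both arrays with a hexaploid father lay below every 2xX2x and 2xX4x array. With the mother's ploidy rising, the arrays read 253.0 and 274.5 in 2xX2x, 336.4 and 430.3 in 4xX2x, and 202.2 and 205.5 in 6xX2x. Both 4xX2x arrays were thus above and both 6xX2x arrays below the 2xX2x pair. In the mutants the signals were 12 and 3.2 in fis1X2x and 19.4 in msi1, against 253.0 and 274.5 in 2xX2x. The fis1X2x and 2xX6x arrays overlapped, and of these 4 only the second of 2xX6x was above its array's 40th percentile.

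The log2 difference of AT1G71250 from 2xX2x was -3.62 in 2xX6x and -4.24 in fis1X2x, which are 12.3-fold and 18.9-fold lower, each with an SE of 0.46 from the fit over 12 arrays. In 2xX4x it was -0.07, within 1 SE of 0. The difference was 0.52 in 4xX2x, 1.43-fold higher, and -0.36 in 6xX2x, 1.28-fold lower. The difference with a hexaploid father was as wide against the other crosses, at -3.55 relative to 2xX4x and -3.26 relative to the reciprocal 6xX2x. In order of level 4xX2x came first and apart from the rest, then 2xX2x, 2xX4x and 6xX2x, of which each overlapped the next, and below all of these msi1, 2xX6x and fis1X2x, which also overlapped each with the next.

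**Figure D1:**
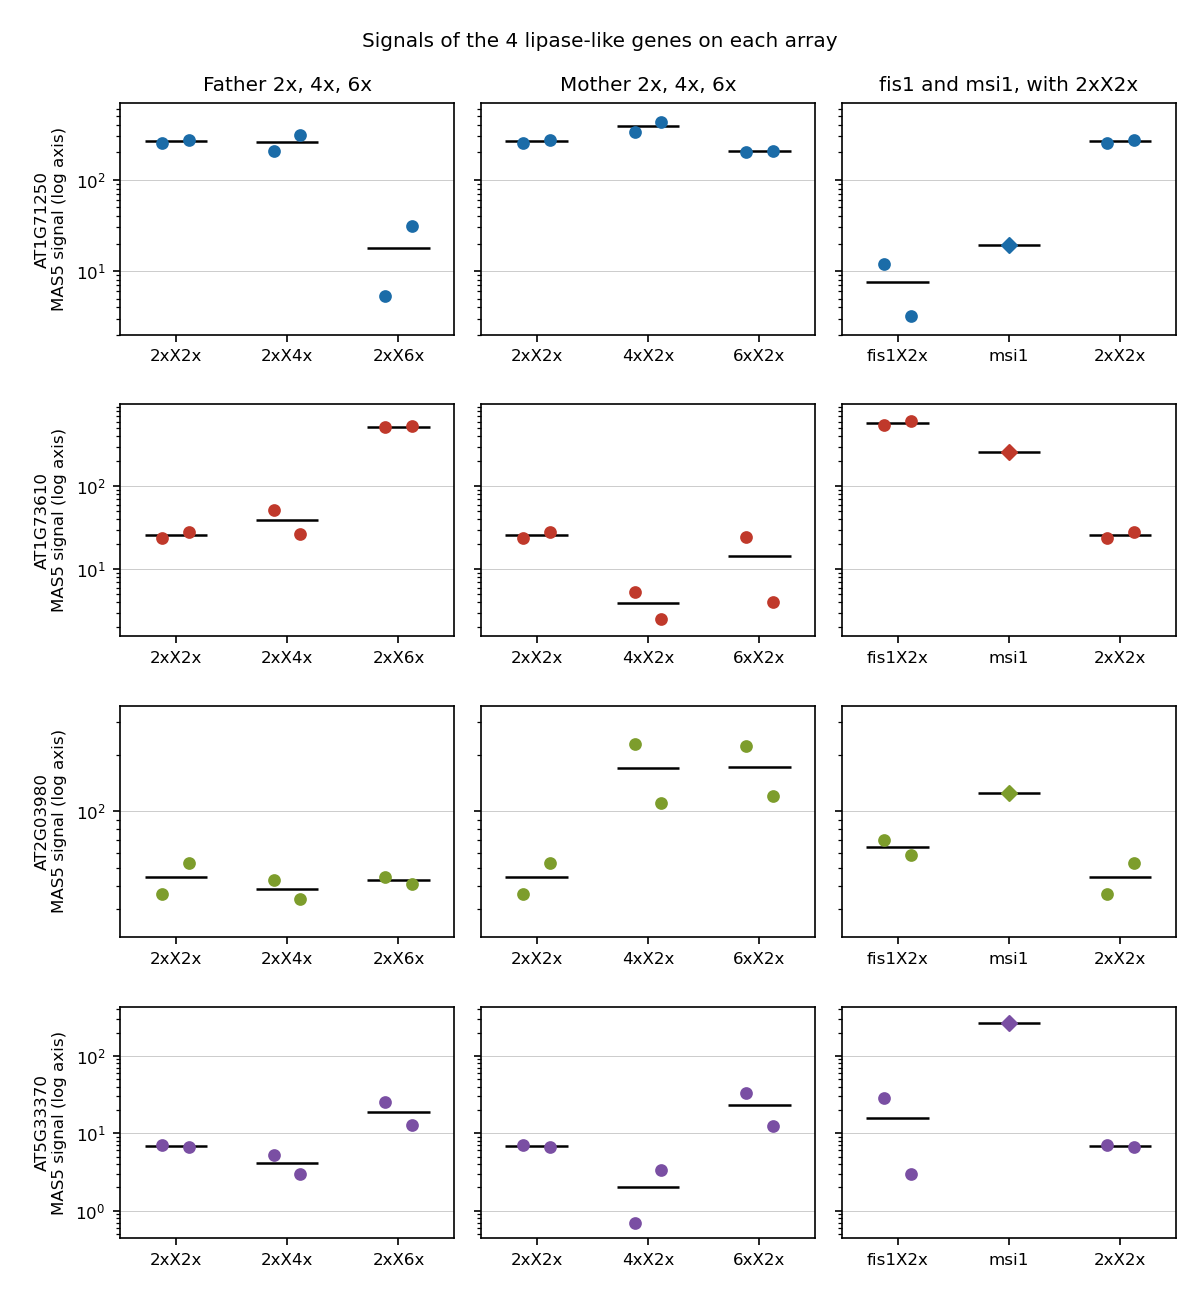
MAS5 signal (log axis) of each of the 4 lipase-like genes on each array, with crosses of rising paternal ploidy at left, of rising maternal ploidy in the middle, and fis1X2x, msi1 and 2xX2x at right. Circles are arrays of replicated groups (n = 2), diamonds the single msi1 array and bars the group means. AT1G71250 is at 5.3 and 30.9 and AT1G73610 at 516.7 and 529.7 in 2xX6x, whereas AT2G03980 is at 110.9 to 230.5 in 4xX2x and 6xX2x.

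AT1G73610 was high in 2xX6x, fis1X2x and msi1, the groups in which AT1G71250 was low, whereas in 6xX2x the mean of both genes was below that of 2xX2x. Its arrays read 23.5 and 28.2 in 2xX2x, 51.7 and 26.2 in 2xX4x, and 516.7 and 529.7 in 2xX6x. The 2xX4x arrays overlapped those of the balanced cross, and both 2xX6x arrays were above every array of 2xX2x and 2xX4x. On the maternal side the signals were 23.5 and 28.2 in 2xX2x, 5.3 and 2.5 in 4xX2x, and 24.7 and 4.0 in 6xX2x. Both 4xX2x arrays were lower than those of 2xX2x, whereas 1 of the 6xX2x arrays was within the 2xX2x range. The mutants gave 552.8 and 605.4 in fis1X2x and 259.0 in msi1, against 23.5 and 28.2 in 2xX2x. Every array of these mutants exceeded every array of 2xX2x, 2xX4x, 4xX2x and 6xX2x.

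In log2 terms AT1G73610 differed from 2xX2x by 4.00 in 2xX6x and by 4.14 in fis1X2x, 16-fold and 17.7-fold higher with an SE of 0.43. The pair of fis1X2x arrays lay just above the pair of 2xX6x arrays, with a difference of 0.14 between these crosses, less than 1 SE. The difference from 2xX2x was 0.43 in 2xX4x, and -1.56 in 4xX2x, 2.96-fold lower. At the low signals of 4xX2x that size depended on the offset, and was -2.51 with an offset of 1 and -1.12 with one 2 times as large. The difference was -0.79 in 6xX2x, where the arrays disagreed. It was -0.05 without the second array, and -1.54 without the first, the array whose control ratios stood apart. Between reciprocal crosses the difference was 4.79 for 2xX6x relative to 6xX2x, 27.7-fold, and 1.99 for 2xX4x relative to 4xX2x, 3.97-fold, with both paternal-excess arrays above both maternal-excess arrays each time. The levels from high to low ran fis1X2x, 2xX6x, msi1, 2xX4x, 2xX2x, 6xX2x and 4xX2x, of which the last 4 overlapped each with the next.

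**Figure D2:**
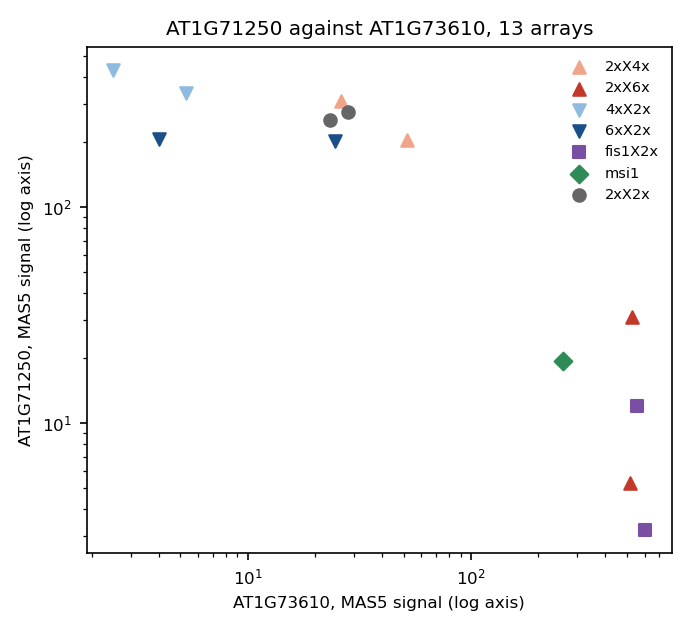
Signal of AT1G71250 against that of AT1G73610 on the 13 arrays (both axes logarithmic, MAS5 signal), with 1 symbol per array. The 2xX6x, fis1X2x and msi1 arrays lie at AT1G73610 signals of 259.0 to 605.4 and AT1G71250 signals of 3.2 to 30.9, and the other 8 arrays at AT1G71250 signals of 202.2 to 430.3.

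The correlation of these genes, over the log2 values of the 12 arrays of replicated groups, was -0.94, and over the 8 arrays without 2xX6x and fis1X2x it was -0.52. All arrays had been scaled to the same trimmed mean, and the relation over 12 arrays lies mostly between the 4 arrays of 2xX6x and fis1X2x and the other 8. The other pairs of the 4 genes had correlations of -0.49 to 0.41 over the 12 arrays and of -0.70 to 0.32 over the 8, where AT1G71250 with AT5G33370 was at -0.70 and AT1G73610 with AT2G03980 at -0.60.

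AT2G03980 stood out in the maternal direction. Its arrays read 36.1 and 53.1 in 2xX2x, 230.5 and 110.9 in 4xX2x, and 224.1 and 121.6 in 6xX2x. Every array with a polyploid mother was at least 110.9 and thus above both 2xX2x arrays, and the 4xX2x and 6xX2x arrays overlapped. With the father's ploidy rising, the signals were 36.1 and 53.1 in 2xX2x, 42.8 and 33.9 in 2xX4x, and 44.8 and 40.6 in 2xX6x, all between 33.9 and 53.1. The signals of the mutants were 70.6 and 58.3 in fis1X2x and 124.7 in msi1, against 36.1 and 53.1 in 2xX2x. These lay above the balanced cross, and msi1 lay within the range of the maternal-excess crosses.

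The log2 difference of AT2G03980 from 2xX2x was 1.71 in 4xX2x and 1.75 in 6xX2x, 3.27-fold and 3.37-fold higher with an SE of 0.37, and the difference of 6xX2x from 4xX2x was 0.04. The first array was 2.08 times the second in 4xX2x and 1.84 times in 6xX2x, so that the mean signals of 170.7 ± 84.6 and 172.8 ± 72.5 (SD, n = 2) were loosely fixed. Without the first 6xX2x array, the one with the raised 3′/5′ ratios, the difference in 6xX2x was 1.33. The differences from 2xX2x were -0.17 in 2xX4x and -0.035 in 2xX6x, smaller than their SE. In fis1X2x the difference was 0.48, 1.4-fold higher. The mean of the paternal-excess crosses was 1.83 lower than that of the maternal-excess crosses on the log2 scale, 3.57-fold, and all 4 paternal-excess arrays lay below all 4 maternal-excess arrays. The 2xX2x and 4xX2x arrays were thus apart, and the 4xX2x and 6xX2x arrays were not.

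AT5G33370, the cutin synthase gene, was dim in every cross and bright in msi1 alone. The msi1 array read 269.7, and the other 12 arrays read 33.4 or less. With the father's ploidy rising the signals were 7.0 and 6.7 in 2xX2x, 5.3 and 3.0 in 2xX4x, and 25.1 and 12.7 in 2xX6x. With the mother's ploidy rising they were 7.0 and 6.7 in 2xX2x, 0.7 and 3.3 in 4xX2x, and 33.4 and 12.5 in 6xX2x. The fis1X2x arrays read 28.4 and 3.0, against 7.0 and 6.7 in 2xX2x. Of these 12 arrays only the first of 6xX2x and the first of fis1X2x passed the array's 40th percentile.

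Relative to 2xX2x the log2 difference of AT5G33370 was 0.84 in 2xX6x and 1.00 in 6xX2x, 1.79-fold and 2-fold higher, and -0.31 in 2xX4x and -0.61 in 4xX2x, with an SE of 0.63 for each. Both hexaploid crosses were thus higher and both tetraploid crosses lower than 2xX2x, whichever parent brought the extra genomes, and none of these differences from 2xX2x exceeded 2 SE. The hexaploid parents were Col-1 and the tetraploid parents C24, so that ploidy and accession cannot be told apart in this split. The direct difference of 6xX2x from 4xX2x was 1.61 with an SE of 0.63, 3.06-fold, with both 6xX2x arrays above both 4xX2x arrays. The paternal-excess mean and the maternal-excess mean differed by 0.07 with an SE of 0.45, and the sign of that difference turned when 1 array was left out. The difference in fis1X2x was 0.44, and without the first fis1X2x array it was -0.45. The first array of 6xX2x, which held the highest of the 12 signals, is also the one with the raised 3′/5′ ratios. Without this array the log2 difference of 6xX2x from 2xX2x was 0.48, less than 1 SE. The part of RNA integrity in the result was not tested.

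**Figure D3:**
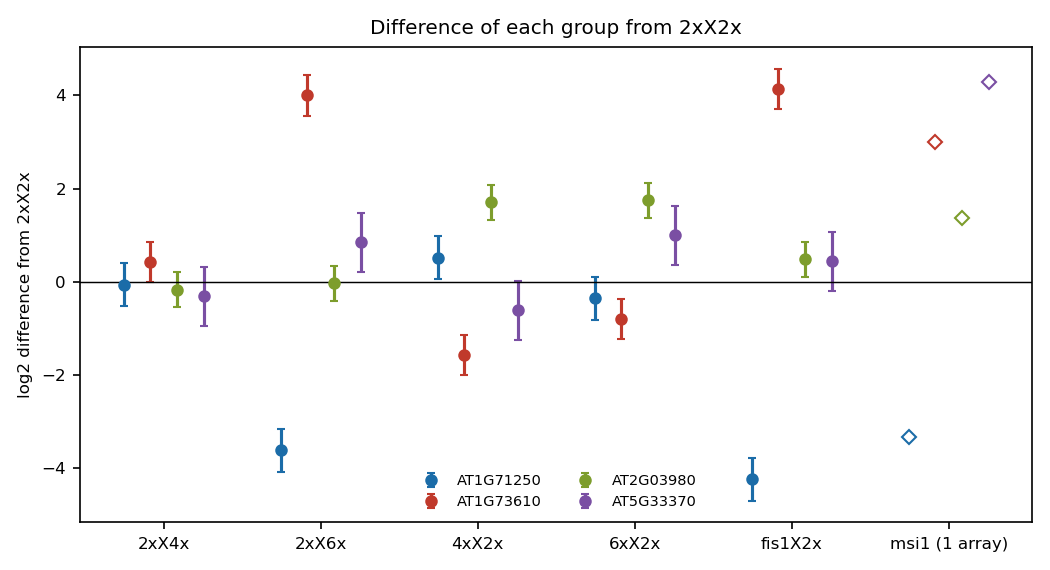
Log2 difference of each group from 2xX2x for the 4 genes, on the scale of log2(signal + 7.4). Circles give the difference with its SE from the fit over 12 arrays, and open diamonds the single msi1 array, which has no error. The values of AT1G71250 and AT1G73610 reach -4.24 and 4.14 in fis1X2x, AT2G03980 is at 1.71 in 4xX2x and 1.75 in 6xX2x, and AT5G33370 reaches 4.28 in msi1.

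The unfertilised msi1 siliques are set against 2xX2x by size only, since there was 1 array. The log2 difference was 4.28 for AT5G33370, 3.01 for AT1G73610, 1.37 for AT2G03980 and -3.34 for AT1G71250. In fold terms AT5G33370 was 19.4-fold, AT1G73610 8.03-fold and AT2G03980 2.58-fold higher, and AT1G71250 10.1-fold lower. So 3 genes were at least 1 above both 2xX2x arrays on the log2 scale and 1 was at least 1 below both, whereas 3.52% of all 15982 probe sets that passed the filter were as far above and 6.04% as far below. AT5G33370 was not alone among GDSL genes in having its highest signal in msi1. Of the family genes described below, AT4G18970 read 320.5 there, AT1G29660 812.9, AT1G33811 170.1 and AT4G01130 50.7, each above all its other arrays. For AT5G14450, AT3G11210 and AT1G54790 the msi1 array was not the highest. Both the stage in days and the absence of fertilization differ between msi1 and 2xX2x along with the genotype.

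Counts of the 4 genes by array overlap add no test. In 2xX4x, 0 genes had both arrays above and 1 had both below those of 2xX2x, against a background of 15.8% and 15.3% of all probe sets tested. In 2xX6x these counts were 2 and 1 (14.4% and 16% of all), in 4xX2x 2 and 2 (18.1% and 21.8%), in 6xX2x 2 and 1 (19.6% and 23.1%) and in fis1X2x 2 and 1 (16.1% and 23.3%). For all paternal-excess against all maternal-excess arrays, 1 gene was above and 1 below (6.23% and 5.09%). Between the reciprocal crosses 1 gene was above and 2 were below, both in 2xX4x relative to 4xX2x (25.1% and 22.3%) and in 2xX6x relative to 6xX2x (23.1% and 22.7%). In 6xX2x relative to 4xX2x 1 was above and 1 below (23.5% and 23.3%). All of the comparisons with 2xX2x use the same pair of 2xX2x arrays.

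The rest of the family was listed from general knowledge as 110 other loci, of which 109 were in the table of gene names. Of these, 71 had a single-gene probe set, 26 of which were removed by the filter, so that 45 were tested with limma and Benjamini-Hochberg adjustment over all probe sets. Of the 45 genes, 7 passed an adjusted p of 0.05 in at least 1 of 6 comparisons. The same share over all probe sets was not counted, so this number has no background beside it, and the shares of single comparisons follow. None of the 45 passed in 2xX4x or 2xX6x against 2xX2x, where 0.0751% and 0.532% of all probe sets tested were called higher and 0.00626% and 0.419% lower. There 2 and 5 genes had an unadjusted limma p under 0.05. Such genes numbered 11 in 4xX2x, 10 in 6xX2x, 8 in fis1X2x and 12 in paternal relative to maternal excess. They numbered 13 in 2xX4x relative to 4xX2x and 14 in 6xX2x relative to 4xX2x. The share of all probe sets with such a p was not counted. In 4xX2x 0 genes rose and 1 fell (0.838% and 1.34% of all), in 6xX2x 1 rose and 0 fell (1.01% and 1.3%), in fis1X2x 1 rose and 2 fell (0.901% and 1.28%), and in paternal relative to maternal excess 1 rose and 2 fell (3.37% and 2.2%). Between reciprocal crosses 1 rose and 1 fell in 2xX4x relative to 4xX2x (2.18% and 1.02% of all), and none passed in 2xX6x relative to 6xX2x (1.88% and 0.995%), where 4 genes had an unadjusted p under 0.05. The comparison of 6xX2x with 4xX2x held the most calls, with 3 rises and 1 fall (1.6% and 1.37% of all). In it 20 genes had both 6xX2x arrays above and 7 had both below (23.5% and 23.3% of all). Its median was 0.50, against -0.001 over all probe sets tested. The mothers of these crosses also differ in accession and transgene, and the first 6xX2x array had outlying control ratios. The median log2 difference was -0.16 over the 45 genes, against -0.002 over all probe sets tested, in 2xX4x, 0.11 against -0.01 in 2xX6x, -0.25 against -0.03 in 4xX2x, 0.27 against -0.03 in 6xX2x, -0.10 against -0.06 in fis1X2x and -0.035 against 0.015 in paternal relative to maternal excess.

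**Figure D4:**
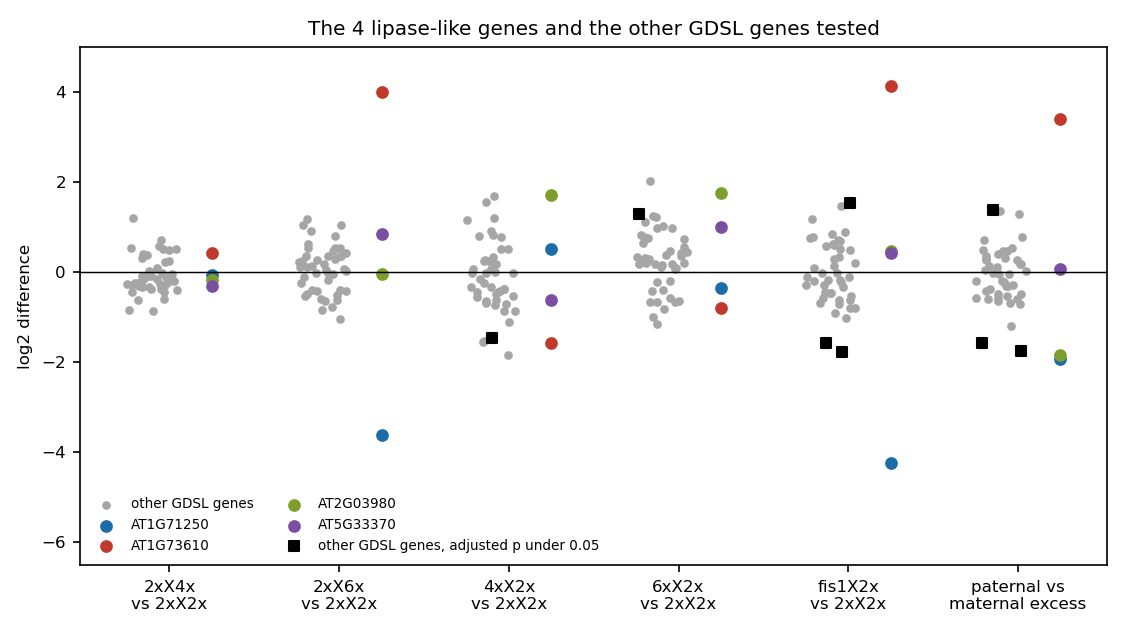
Log2 differences in 6 comparisons of the 45 other GDSL genes tested (grey points, black squares where the adjusted p was under 0.05, spread sideways for legibility) and of the 4 lipase-like genes (coloured points). AT1G73610 at 4.00 and AT1G71250 at -3.62 lie outside the other family genes in 2xX6x, and likewise in fis1X2x. Since these genes were chosen by their signals in these groups, this is a description and no test.

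Among the 3 family genes called between paternal and maternal excess, 1 has a known part in seed oil. AT1G54790 encodes SFAR1, a seed fatty acid reducer that breaks down seed lipids. It read 49.7, 36.5, 36.1 and 49.1 on the 2xX4x and 2xX6x arrays, against 166.7, 148.7, 199.5 and 77.0 on the 4xX2x and 6xX2x arrays. The groups did not overlap, and the difference was -1.57 ± 0.30 (SE, log2), 2.96-fold lower in paternal excess, with a limma adjusted p of 0.00959. The call was lost without the second 2xX4x array (adjusted p = 0.0547). Of the 45 family genes it was also the one whose values followed AT2G03980 most closely, with a correlation of 0.90 over the 12 arrays.

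AT1G33811 was likewise lower in paternal excess. Its signals were 10.4, 2.7, 9.6 and 6.7 in 2xX4x and 2xX6x, against 57.5, 40, 50.3 and 22.9 in 4xX2x and 6xX2x, with no overlap. The difference was -1.74 ± 0.33 on the log2 scale, 3.34-fold lower (limma adjusted p = 0.00959), a call lost without the second 2xX4x array (adjusted p = 0.0522) or the first 4xX2x array (adjusted p = 0.0529). AT3G11210 went the other way and was the only one of the 45 genes called higher in paternal excess, with 51.3, 28.4, 34.7 and 45.4 in 2xX4x and 2xX6x, against 7.0, 2.8, 19.8 and 18.1 in 4xX2x and 6xX2x. Its difference was 1.38 ± 0.25, 2.6-fold higher (limma adjusted p = 0.00737), kept without any 1 array, and of the 45 genes it was the one most like AT1G73610, at a correlation of 0.77.

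AT4G18970, which encodes the seed fatty acid reducer SFAR5, rose in fis1X2x and in 6xX2x. It read 172.3 and 136.1 in fis1X2x and 139.8 and 117.2 in 6xX2x, against 61.7 and 37.2 in 2xX2x. The log2 difference was 1.53 ± 0.29 in fis1X2x, 2.89-fold (limma adjusted p = 0.0192), and 1.29 ± 0.29 in 6xX2x, 2.44-fold (limma adjusted p = 0.0449). Of the 45 it was the least like AT1G71250, with a correlation of -0.71. The call in 6xX2x was lost without any 1 of the 12 arrays (adjusted p from 0.0505 to 0.24), and that in fis1X2x without the second 2xX2x array or without either fis1X2x array.

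In fis1X2x 2 family genes fell. AT5G14450 had signals of 37.4 and 46.7 in fis1X2x, against 143.6 and 134.4 in 2xX2x, a log2 difference of -1.57 ± 0.27 and 2.97-fold lower (limma adjusted p = 0.0108). This call was lost without either 2xX2x array or the first fis1X2x array. AT4G01130 read 1.3 and 2.1 in fis1X2x, against 21.5 and 25.5 in 2xX2x, with a difference of -1.76 ± 0.40, 3.39-fold lower (limma adjusted p = 0.0483). Its fis1X2x signals are far below the 40th percentile of those arrays, and its call was lost on leaving out 10 of the 12 arrays and under 6 of 8 other settings. In 4xX2x, AT1G29660 fell to 103.3 and 105.5, against 271.0 and 332.9 in 2xX2x, with a difference of -1.46 ± 0.27, 2.75-fold lower (limma adjusted p = 0.0181). That call was lost on leaving out any 1 of the 4 arrays compared (adjusted p from 0.0534 to 0.129).

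The genes whose values were most like each lipase-like gene over the 12 arrays are given as a description. For AT1G71250 these were AT5G38160, AT1G12080 and AT1G53690, with correlations of 0.96, 0.96 and 0.95. AT5G38160 read 45.7 and 513.1 in 2xX6x and 32.3 and 51.6 in fis1X2x, against 1949.2 and 2738.7 in 2xX2x, so that it too was lower in these crosses. For AT1G73610 they were AT2G06090, AT3G25420 and AT1G22015, at 0.98, 0.98 and 0.97. AT3G25420 encodes scpl21, a serine carboxypeptidase-like protein, and read 151.3 and 139.6 in 2xX6x and 163.6 and 205.2 in fis1X2x, against 40.7 and 26.9 in 2xX2x. For AT2G03980 they were AT2G31945, AT4G37250 and AT3G50270, at 0.95, 0.94 and 0.92, the first of which read 211.0 and 90.0 in 4xX2x and 127.9 and 111.2 in 6xX2x, against 29.9 and 27.0 in 2xX2x. For AT5G33370 they were AT1G03820, AT3G27400 and AT1G12845, at 0.94, 0.93 and 0.93, over arrays on most of which AT5G33370 itself was dim.

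Markers of seed compartments and the other lipid lists were measured only in part. Single-gene probe sets were available for 1 of 25 cutin and epidermis genes, 4 of 19 seed oil genes, 2 of 8 seed coat genes, 3 of 9 endosperm genes and 0 of 7 embryo genes. Of the endosperm genes 2 were tested, and both were called higher in fis1X2x, where 0.901% of all probe sets tested were. In 2xX6x 1 of them was called higher, against 0.532% of all, and the other was not (limma adjusted p = 0.0945). MPC, an imprinted endosperm gene, read 161.7 and 154.0 in 2xX6x and 268.7 and 158.3 in fis1X2x, against 14.8 and 5.0 in 2xX2x, 9.96-fold and 12.9-fold higher on the log2(signal + 7.4) scale (limma adjusted p = 0.00311 and 0.0011). AGL62, a MADS-box gene of the dividing endosperm, read 53.5 and 44.3 in fis1X2x, against 8.6 and 4.7 in 2xX2x, 4.03-fold higher (limma adjusted p = 0.0356), a call lost on leaving out 10 of the 12 arrays. In msi1, MPC read 13.1, within its 2xX2x range, whereas AGL62 read 30.6, above both of its 2xX2x arrays. AT1G73610 was at 259.0 in msi1, against 23.5 and 28.2 in 2xX2x. The part of endosperm amount in the levels of AT1G73610 and AT1G71250 was not tested.

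The seed oil genes called were the oleosins, which coat the oil bodies of the seed. OLEO3 read 1311.3 and 703.1 in 4xX2x, against 170.7 and 184.4 in 2xX2x, 5.24-fold higher (limma adjusted p = 0.0181), a call lost without either 2xX2x array or the first 4xX2x array. AT3G01570, another oleosin gene, read 760.3 and 253.9 in 4xX2x, against 41.5 and 20.7 in 2xX2x, 12.1-fold higher (limma adjusted p = 0.00296). OLEO3 was at 142.4 and 164.6 in 6xX2x, below both 2xX2x arrays, and AT3G01570 was at 71.0 and 47.7, above both 2xX2x arrays, while AT2G03980 was about as high in 6xX2x as in 4xX2x. Neither oleosin was called in 6xX2x. On the single msi1 array OLEO3 read 3.8 and AT3G01570 3.9, each below both of its 2xX2x arrays, while AT2G03980 at 124.7 was above both of its own. OLEO3 also fell in fis1X2x, to 24.1 and 60.5 against 170.7 and 184.4 in 2xX2x, 4-fold (limma adjusted p = 0.0434), a call lost on leaving out 7 of the 12 arrays. In paternal relative to maternal excess OLEO3 was 4.11-fold (limma adjusted p = 0.00271) and AT3G01570 6.81-fold lower (limma adjusted p = 0.000614), the direction in which AT2G03980 was lower, and whether what moved the oleosins had a part in the AT2G03980 levels was not tested. The lipase gene SDP1, which releases fatty acids from stored oil, was not called in any of the 6 comparisons.

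SHN3, a regulator of cuticle formation, was the single gene measured of the cutin list. It read 372.8 in msi1, its highest array, against 169.5 and 196.9 in 2xX2x. The fis1X2x arrays, at 319.9 and 311.8, were also above both 2xX2x arrays, and those of 6xX2x read 124.4 and 295.0. The 4xX2x arrays, at 53.8 and 77.6, were below both 2xX2x arrays. SHN3 was not called in the 6 comparisons. The part of cuticle-bearing tissue in the msi1 level of AT5G33370 was not tested. Of the seed coat genes, BAN, which encodes the anthocyanidin reductase of the inner seed coat, read 640.1 to 1838.7 over the 13 arrays, and it was not called. AT3G50990, a peroxidase gene of the seed coat, was not called in the 6 comparisons but read 11.8 and 6.4 in 6xX2x, against 163.0 and 669.0 in 4xX2x, a 20.9-fold lower level (limma adjusted p = 0.0122).

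Of the nearest loci on either side with a single-gene probe set, the 4 that were tested were not called in 2xX6x or fis1X2x against 2xX2x. AT1G73620, directly next to AT1G73610, differed from 2xX2x by 0.52 ± 0.51 in 2xX6x and 0.49 ± 0.51 in fis1X2x on the log2 scale and was not called, and AT1G73600 on the other side differed by -0.01 and -0.34. AT1G71230, which encodes the signalosome subunit CSN5B near AT1G71250, differed from 2xX2x by 0.47 in 2xX6x and -0.04 in fis1X2x without a call, and was 1.86-fold higher in paternal than in maternal excess (limma adjusted p = 0.0283), opposite in sign to AT1G71250. Both neighbours of AT2G03980, AT1G71290 on the other side of AT1G71250 and AT5G33380 next to AT5G33370 were removed by the filter, and AT5G33350, on the other side of AT5G33370, was not called in any comparison with 2xX2x.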

How the data were processed

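The deposited values were signal intensities that the authors had computed with MAS5 and scaled to one trimmed mean. Genes follow the platform annotation (13513 probe sets with 1 gene, 503 with several, 8730 unnamed), and locus names the TAIR10.1 gene table. The 64 control probe sets were left out.

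The offset of 7.4 was the 20th percentile of the signals. A probe set was tested if it exceeded the 40th percentile on 2 or more arrays (15982 tested, 6764 not). Group means were estimated over the 12 replicated arrays in limma 3.58.1 under R 4.3.3 (trended eBayes; 6 residual and 4.9 prior degrees of freedom), with two-sided tests and Benjamini-Hochberg adjustment for each comparison over all tested probe sets. The number of arrays limits the precision. For msi1, with 1 array, a size of 1 on the log2 scale beyond both 2xX2x arrays was used. Levels of different probe sets were not compared. Whether the replicates came from separate plantings is not given in the sources used here.

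The 4 genes, the lists (GDSL family, cutin and epidermis, seed oil, seed coat, endosperm, embryo) and the tests were chosen with earlier results of these data known. Named genes are, besides the 4, up to 3 rises and 3 falls of the family and up to 2 and 2 of each other list per comparison (adjusted p under 0.05, arrays not overlapping), the 3 genes most correlated with each of the 4, and the nearest measured loci. SHN3, SDP1, BAN and AT3G50990 were named after their values were seen, as the measured members of short lists. The fit was tested on simulated data. Alternatives changed the offset (1 or 14.8), the filter (none or the 60th percentile), the normalization (quantile), the weighting of arrays and the arrays fitted, blocked on replicate number, or omitted 1 array. Plots used matplotlib 3.10.9 under Python 3.11.15.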

Additional observations from a re-analysis of the deposited data

Results flagged for a closer look

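Family genes differed between 2xX4x and 4xX2x, the reciprocal crosses with a tetraploid parent, in which both parents were C24 and both mothers carried A9-barnase. AT1G33811 read 10.4 and 2.7 in 2xX4x, against 57.5 and 40 in 4xX2x, and the direct comparison gave a log2 difference of -2.05 ± 0.47 (limma adjusted p = 0.0374). AT3G11210 read 51.3 and 28.4 in 2xX4x, against 7.0 and 2.8 in 4xX2x, with a log2 difference of 1.92 ± 0.35 (limma adjusted p = 0.0119). In this comparison 2.18% of all probe sets tested were called higher and 1.02% lower. Between the reciprocal crosses with a hexaploid parent the differences kept their sign and missed the threshold, at -1.43 for AT1G33811 (adjusted p = 0.144) and 0.84 for AT3G11210 (adjusted p = 0.26).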

How the results depend on the processing

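The number of family genes called depended on single arrays and on the fit. In 2xX4x and 2xX6x it was 0 under every alternative. With 1 array left out it ranged from 0 to 3 in 4xX2x, from 0 to 3 in 6xX2x, from 0 to 3 in fis1X2x and from 1 to 5 in paternal relative to maternal excess. In 4xX2x, where 1 gene was called, there were 2 calls with an offset of 1 and 0 with the compared arrays alone. In 6xX2x, also with 1 call, there were 3 calls with the offset 2 times as large, 3 with the filter at the 60th percentile, 2 after quantile normalization, 3 with the replicate number as a block, and 0 with an offset of 1, with array weights or with the compared arrays alone. In fis1X2x the 3 calls became 0 with the compared arrays alone, and in paternal relative to maternal excess the 3 calls became 1 with the 60th percentile, since AT3G11210 and AT1G33811 were then not tested. Of the 2 falls in fis1X2x that of AT4G01130 was lost with the larger offset, no filter, the 60th percentile (where it was not tested), quantile normalization, array weights and the compared arrays alone. In 6xX2x the count was 3 without its second array, and 0 without any other single array of the fit except the first of 2xX2x. In fis1X2x it was 1 without the first 2xX2x array or the second fis1X2x array, and 0 without the second 2xX2x or the first fis1X2x array. In 4xX2x it was 3 without either 6xX2x array, and 0 without either 2xX2x array or the first 4xX2x array. In paternal relative to maternal excess it was 1 without the second 2xX4x array and 5 without the second 6xX2x array. The cause was not tested.

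The offset moved the size of large differences. For AT1G71250 in fis1X2x the log2 difference was -5.16 with an offset of 1 and -3.66 with the offset 2 times as large. For AT1G73610 these values were 4.29 and 3.73 in 2xX6x, and 4.44 and 3.87 in fis1X2x, and with an offset of 1 it was 4.27 in paternal relative to maternal excess. For AT5G33370 with an offset of 1 it was 1.27 in 2xX6x, -1.54 in 4xX2x and -0.65 in 2xX4x, and with the larger offset -0.37 in 4xX2x. For AT1G73610 in 4xX2x it was -1.34 after quantile normalization. With 1 array left out, the log2 difference of AT1G71250 ranged from -4.42 to -2.82 in 2xX6x and from -4.68 to -3.80 in fis1X2x, that of AT1G73610 from 3.90 to 4.10 and from 4.04 to 4.25, and that of AT2G03980 from 1.21 to 2.21 in 4xX2x and from 1.33 to 2.17 in 6xX2x. Signs turned for differences near 0. AT1G71250 in 2xX4x ranged from -0.36 to 0.23, the last without the first 2xX4x array. AT2G03980 ranged from -0.41 to 0.066 in 2xX4x and from -0.27 to 0.20 in 2xX6x, each highest without the second 2xX2x array, and was 0.025 in 2xX6x without the second 2xX6x array. AT5G33370 was -0.45 in fis1X2x without the first fis1X2x array, with a range up to 1.33, and in paternal relative to maternal excess it ranged up to 0.33 and was -0.10 without the first 2xX6x, -0.027 without the first 4xX2x and -0.185 without the second 6xX2x array.

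Replicate numbers are shared by the labels of all groups, and the deviations of first replicates correlated between groups at -0.24 to 0.41 (median 0.06, 15 pairs of groups), so the numbers were not taken to pair the samples, and the block changed no other count by over 1.5 times. Where 1 array was left in a group, its spread was taken from the other groups. Signals near the bottom of an array, as for AT5G33370, limit what a difference in them can show.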
